A study of Mus musculus with 8 samples.

Results

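The acute-phase and calprotectin genes described here are Saa1, Saa2, Saa3, Lcn2, S100a8, S100a9, Hp, Lbp, Orm1 and Orm2. They were taken by the gene name printed on the array, and 10 of the 31093 gene names on the array belong to them, each with 1 probe. The genes were chosen by their processed signals across the 4 groups, so the signals and the differences between groups below are a description, with no p-value for any of the 10 genes.

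RNA came from the gut of female BALB/cA Jcl mice (8 weeks old), labelled small intestine, while the design text says jejunum. Mice were injected intraperitoneally, with 12 h of pretreatment, and tissue was collected 4 h after a carbon-ion dose, a beam of heavy charged particles that is used against tumours. The groups were FGF1/CPP-C with 8 Gy, FGF1 with 8 Gy, saline with 8 Gy and saline with 0 Gy. FGF1 is fibroblast growth factor 1, and FGF1/CPP-C is a chimeric protein built on it. Each group had 2 arrays, and no array came from mice given either growth factor without irradiation. The labels do not say whether an array came from 1 animal or from a pool, so the spread between the arrays of a group, which is all that the p-values below measure, may be technical.

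Acute-phase proteins are secreted, mostly by the liver, when interleukin 6, interleukin 1 and tumour necrosis factor signal through STAT3, NF-kB and C/EBP factors. Several are also made in the gut, where serum amyloid A and lipocalin 2 are products of the epithelium during infection and inflammation. S100a8 and S100a9 encode the subunits of calprotectin, a protein abundant in neutrophils and monocytes that withholds zinc and manganese from microbes and is measured in stool as a sign of intestinal inflammation.

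The stretches of 250 bases before the annotated start of 6 of the genes are shown because most of these genes differed in signal between groups, and because Saa1 and Saa2 have nearly the same upstream sequence. They come from RefSeq on GRCm38.p6, where 7 of the 10 genes had an entry, Orm2 being the seventh. Each is written 5′ to 3′ on the strand of its gene. Capitals mark matches to a C/EBP motif (TTNNGCAA), an NF-kB motif (GGNA and CC with any 4 bases between) or a TATA motif (TATAAA), searched on both strands.
Saa1: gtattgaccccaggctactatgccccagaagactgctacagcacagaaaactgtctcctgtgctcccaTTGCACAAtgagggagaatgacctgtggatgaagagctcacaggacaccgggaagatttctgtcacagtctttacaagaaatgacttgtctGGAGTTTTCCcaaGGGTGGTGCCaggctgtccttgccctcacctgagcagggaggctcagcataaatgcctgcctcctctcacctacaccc
Saa2: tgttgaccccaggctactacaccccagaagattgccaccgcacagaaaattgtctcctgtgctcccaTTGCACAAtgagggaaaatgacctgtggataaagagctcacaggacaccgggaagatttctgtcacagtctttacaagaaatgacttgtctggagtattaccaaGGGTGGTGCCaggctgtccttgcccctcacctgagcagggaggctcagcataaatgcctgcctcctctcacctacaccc
Saa3: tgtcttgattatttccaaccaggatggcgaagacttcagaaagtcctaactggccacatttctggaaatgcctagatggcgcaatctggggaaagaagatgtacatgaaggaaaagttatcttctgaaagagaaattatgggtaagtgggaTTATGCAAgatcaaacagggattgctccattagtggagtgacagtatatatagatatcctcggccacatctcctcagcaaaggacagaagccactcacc
Lcn2: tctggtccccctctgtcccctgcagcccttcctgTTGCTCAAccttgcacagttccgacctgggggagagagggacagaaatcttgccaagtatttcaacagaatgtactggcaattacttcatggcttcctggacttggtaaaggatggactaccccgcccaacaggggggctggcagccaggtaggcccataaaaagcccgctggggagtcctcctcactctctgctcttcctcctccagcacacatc
S100a8: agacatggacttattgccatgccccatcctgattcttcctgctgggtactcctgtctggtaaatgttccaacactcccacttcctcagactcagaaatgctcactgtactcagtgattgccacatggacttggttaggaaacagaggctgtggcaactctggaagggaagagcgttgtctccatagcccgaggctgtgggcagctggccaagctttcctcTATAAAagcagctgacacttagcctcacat
S100a9: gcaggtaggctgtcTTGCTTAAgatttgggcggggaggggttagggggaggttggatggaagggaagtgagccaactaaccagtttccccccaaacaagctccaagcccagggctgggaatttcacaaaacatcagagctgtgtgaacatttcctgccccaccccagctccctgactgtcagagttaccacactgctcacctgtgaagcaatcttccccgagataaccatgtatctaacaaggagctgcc
The Saa1 stretch is chr7:46742981-46743230 on the minus strand, Saa2 is chr7:46751583-46751832 on the plus strand and Saa3 is chr7:46715677-46715926 on the minus strand. The Lcn2 stretch is chr2:32387740-32387989 on the minus strand, S100a8 is chr3:90668821-90669070 on the plus strand and S100a9 is chr3:90695722-90695971 on the minus strand.

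The C/EBP letters were found in 6 of the 7 stretches, S100a8 being the exception, and in 9.56% of 32851 RefSeq promoters searched over the same length. The NF-kB letters occurred 2 times before Saa1 and 1 time before Saa2, and 40.7% of promoters hold them. A STAT motif (TTCNNNGAA) was found in none of the 7 stretches and in 7.02% of promoters. The TATA letters were found before S100a8 and Orm2 and in 12.4% of promoters. Saa1 and Saa2 were identical at 238 of 251 aligned bases (94.8%), against 52.2% for Saa1 and Saa3. The motifs were picked after the sequences had been seen, no match overlapped a match to another motif, and a match describes letters and not a bound site.

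**Figure D1:**
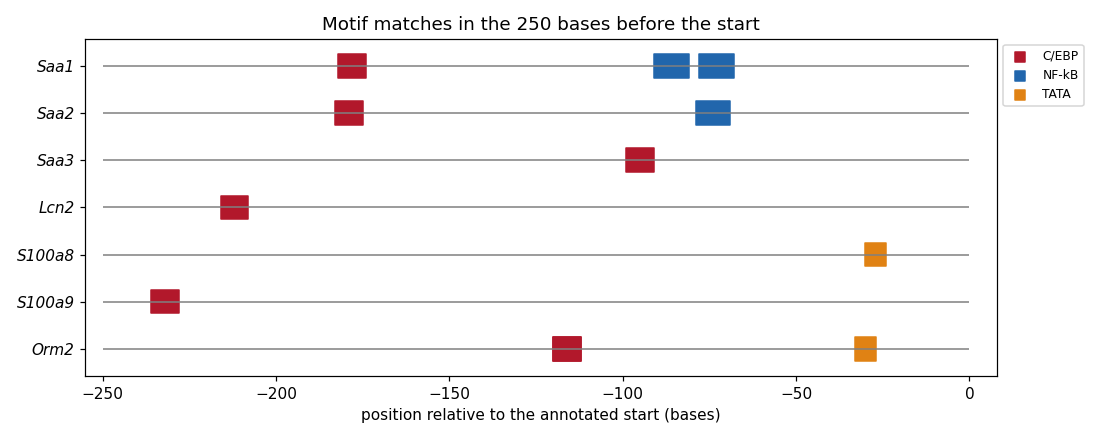
Positions of the motif matches in the 250 bases before the annotated start of 7 genes, in bases relative to the start on the x axis, 1 line per gene. Red boxes are C/EBP letters, blue boxes NF-kB letters and orange boxes TATA letters; S100a8 has no red box, and the blue boxes lie on the lines of Saa1 and Saa2.

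The 8 arrays had 75th percentiles of 1734.7 to 2165.2 units of processed intensity, with 68.2% to 72.5% of spots well above background. Across genes, Pearson r between replicates was 0.982 to 0.994. All 13 markers of absorptive enterocytes, such as Fabp1 and Fabp2, were well above background on every array. Slide 1 carried all first replicates and slide 2 all second replicates. On 3 arrays, namely replicate 1 of FGF1, replicate 2 of 8 Gy saline and replicate 1 of 0 Gy saline, the median of the stomach antrum markers was between 1.94 and 2.71 on the normalised log2 scale, against -5.98 to -3.39 on the other 5. Pancreatic acinar markers were also high on 2 of these 3, the 8 Gy and the 0 Gy saline arrays, with summed signals of 443000 and 2090000 against 16500 to 32300 on the other 6 arrays. These sums include Clps, which had at least 15200 units on every array. Replicate 1 of FGF1/CPP-C also carried acinar transcripts, with 3350 units of Amy2a5 and 1830 of Ctrb1, against 0.496 and 322 on replicate 2. The acinar medians of these 2 arrays were -1.51 and -5.91.

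Signals are given as processed intensities scaled so that every array has the same 75th percentile, 1981.2 units, with replicate 1 first within each group. A signal below 18.5 units was set to that floor before logarithms were taken, and "well above background" is the mark that the scanner software gave. Log2 differences come with the standard error (SE) of a limma fit to all 8 arrays. Each group has n = 2 arrays, and levels of different genes come from different probes and are not compared. Without the 3 arrays with high antrum markers, the FGF1, 8 Gy saline and 0 Gy saline groups keep a lone array each.

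S100a8 and S100a9, the calprotectin subunits, had higher signals on all 4 arrays of the FGF1/CPP-C and FGF1 groups than on any saline array, by 5.04-fold to 6.32-fold over 8 Gy saline. S100a8 had signals of 156 and 99.8 with FGF1/CPP-C, 119 and 138 with FGF1, 29 and 21.2 with 8 Gy saline, and 33.7 and 28 with 0 Gy saline. The second array of both saline groups was not well above background for S100a8. S100a9 had signals of 787 and 576 with FGF1/CPP-C, 540 and 713 with FGF1, 147 and 77.4 with 8 Gy saline, and 107 and 85.8 with 0 Gy saline. Neither growth factor group overlapped either saline group for either subunit, while the pairs of growth factor groups overlapped and so did the pairs of saline groups. In bulk tissue, fewer cells of a type and less RNA per cell cannot be told apart.

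The log2 difference of S100a8 was 2.33 ± 0.26 (SE) for FGF1/CPP-C relative to 8 Gy saline and 2.37 ± 0.26 for FGF1 against 8 Gy saline. That of S100a9 was 2.66 ± 0.34 for FGF1/CPP-C relative to 8 Gy saline and 2.54 ± 0.34 for FGF1 against 8 Gy saline. These comparisons share the 8 Gy saline arrays. Within slide 1 and slide 2 the differences of S100a8 were 2.43 and 2.24 for FGF1/CPP-C and 2.04 and 2.70 for FGF1. Those of S100a9 were 2.43 and 2.90 for FGF1/CPP-C and 1.88 and 3.20 for FGF1. Relative to 0 Gy saline the S100a8 signal was 4.06-fold with FGF1/CPP-C and 4.17-fold with FGF1, and the S100a9 signal was 7.04-fold and 6.49-fold. Between FGF1/CPP-C and FGF1 the difference was -0.04 ± 0.26 for S100a8 and 0.12 ± 0.34 for S100a9, and between 8 Gy and 0 Gy saline it was -0.31 ± 0.26 and 0.15 ± 0.34. With normexp background correction, which adds an offset of 50 and compresses dim signals, the S100a8 difference was 1.07 in both comparisons against 8 Gy saline.

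The S100a8 probe is shown because the signals of that gene in the saline groups lie near the background: it is 60 bases long and maps, per the array files, to chr3:90473778-90473837 on the plus strand of mm9.
S100a8 probe: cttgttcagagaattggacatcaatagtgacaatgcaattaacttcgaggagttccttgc
The 2 calprotectin genes lie on the same chromosome, the S100a9 probe mapping to chr3:90496573-90496632 on the minus strand of mm9. Over the 8 arrays the log2 signal of S100a8 followed that of S100a9 with Pearson r = 0.985, the highest among all named genes for either subunit. The next genes most alike to S100a9 were Rhot1 (r = 0.976) and Cdc42se1 (r = 0.971), and those most alike to S100a8 were Pacc1 (r = 0.958) and Dhx58 (r = 0.949). These correlations describe 8 points in 4 groups and were chosen as the highest of all genes.

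Calprotectin is a defining product of neutrophils, so markers of neutrophils other than these genes are given beside it. Of 16 listed markers, 3 of which also stand on the cytokine receptor, partner or epithelial defence lists below, Ly6g had no probe, 15 were on the array and 10 were measured, of which 0 passed at an adjusted p under 0.05 in any of the 6 comparisons by limma. At an unadjusted p under 0.05, 1 of the 10 was counted in FGF1/CPP-C against 8 Gy saline, where 11.9% of all genes were, and 0 in FGF1 against 8 Gy saline, where 1.74% were. The marker counted was Camp, which was lower with FGF1/CPP-C than with 8 Gy saline (-0.38 ± 0.10, limma adjusted p = 0.328). The median log2 signal of the list was -3.87 and -4.49 with FGF1/CPP-C, -4.50 and -4.52 with FGF1, -4.42 and -4.93 with 8 Gy saline, and -4.01 and -4.49 with 0 Gy saline, so that FGF1/CPP-C overlapped both saline groups and the FGF1 pair lay within the range of 8 Gy saline. The summed signal of the list, which is mostly Csf3r, ranged from 125000 to 130000 with FGF1/CPP-C, 127000 to 151000 with FGF1, 134000 to 150000 with 8 Gy saline and 159000 to 161000 with 0 Gy saline. Ngp and Stfa2l1, granule and cytosol proteins of maturing neutrophils, were not well above background on any array. These markers, like Il1r2 and Retnlg, were picked after their values were seen. Il1r2, the decoy receptor of interleukin 1, had 732 and 493 units with FGF1/CPP-C, 699 and 590 with FGF1, 444 and 474 with 8 Gy saline, and 447 and 405 with 0 Gy saline. All 4 growth factor arrays thus lay above all 4 saline arrays for Il1r2, as for S100a8 and S100a9, with log2 differences from 8 Gy saline of 0.39 ± 0.20 for FGF1/CPP-C (limma adjusted p = 0.466) and 0.49 ± 0.20 for FGF1 (adjusted p = 1). Retnlg, a neutrophil product, had 220 and 246 units with FGF1/CPP-C, 260 and 148 with FGF1, 223 and 139 with 8 Gy saline, and 258 and 203 with 0 Gy saline. All 10 monocyte and macrophage markers on the array were well above background on every array, and 0 passed in any comparison. With FGF1/CPP-C, 7 of the 10 were higher than with 8 Gy saline, 6 had an unadjusted p under 0.05 by limma, where 11.9% of all genes did, and the median log2 difference was 0.43. For FGF1 against 8 Gy saline 8 were higher, 4 had an unadjusted p under 0.05, where 1.74% of all genes did, and the median was 0.29. The counts of 6 and 4 take both directions, as Mrc1 among the 6 was lower (-0.49 ± 0.19) and Ccr2 among the 4 was lower (-0.49 ± 0.15). Mrc1 and Ccr2 were lower than with 8 Gy saline in both growth factor groups. Without the 3 arrays with high antrum markers these medians were 0.20 for FGF1/CPP-C and 0.02 for FGF1, and those of the neutrophil list were -0.25 and -0.15. Adgre1, the macrophage surface protein F4/80, had a difference of 0.63 ± 0.15 for FGF1 against 8 Gy saline (limma adjusted p = 1), and 0.51 without those 3 arrays. The summed signal of the macrophage list was 51500 to 52300 with FGF1/CPP-C, 60500 to 62200 with FGF1, 42700 to 59200 with 8 Gy saline and 47900 to 53600 with 0 Gy saline. With all arrays the macrophage list thus had a positive median difference in both comparisons in which S100a8 and S100a9 were higher. Whether any cell type had a part in the S100a8 and S100a9 signals was not tested.

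**Figure D2:**
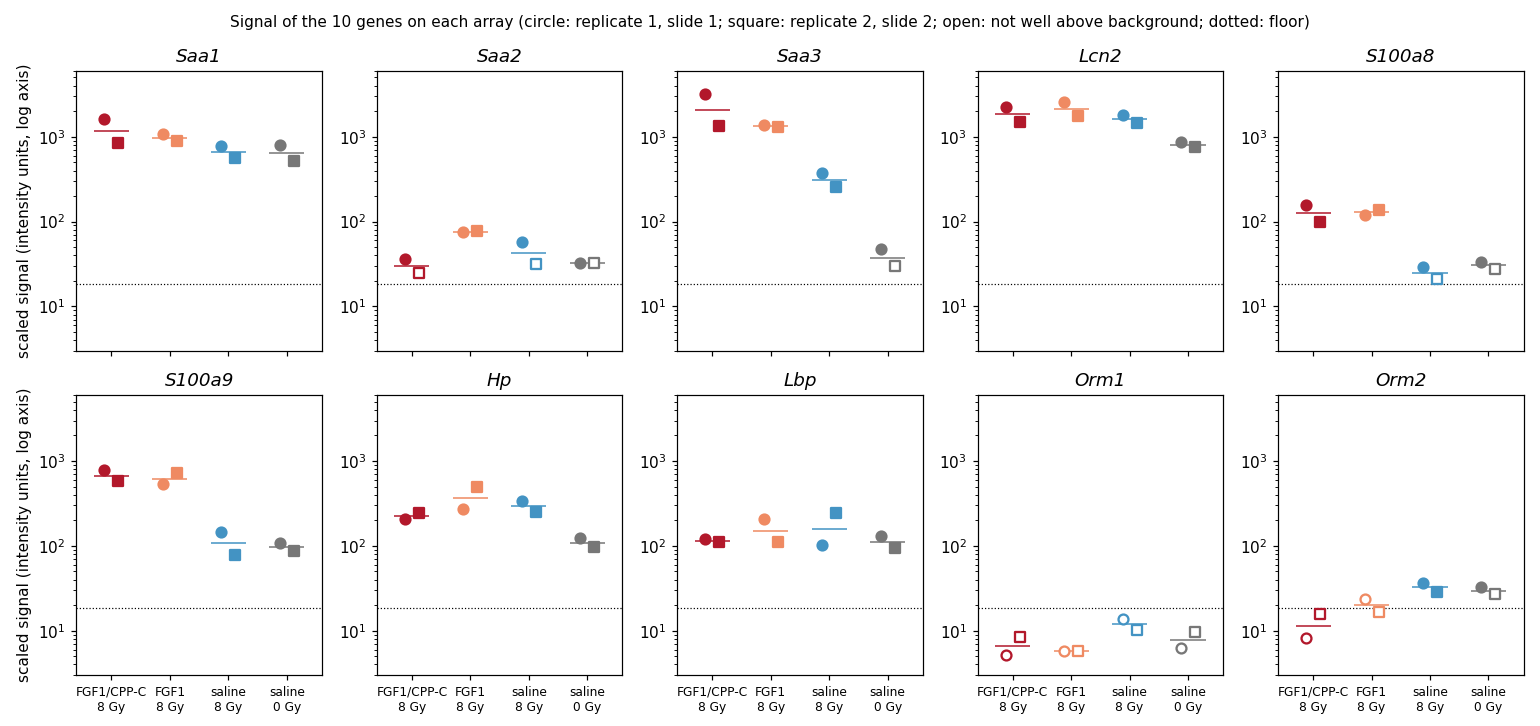
Scaled signal of each of the 10 genes on every array, in intensity units on a log axis, by group. Circles are replicate 1 and squares replicate 2, open symbols are not well above background, short lines are geometric means of the 2 arrays and the dotted line is the floor of 18.5 units; S100a8 and S100a9 separate the growth factor groups from the saline groups, and Saa3 is lowest with 0 Gy saline.

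Lcn2 encodes lipocalin 2, which binds the iron carriers of bacteria, and its signal was higher in the irradiated groups than with 0 Gy saline. It had signals of 2270 and 1500 with FGF1/CPP-C, 2560 and 1750 with FGF1, 1800 and 1460 with 8 Gy saline, and 870 and 755 with 0 Gy saline. All 6 irradiated arrays lay above both unirradiated ones, and the 3 irradiated groups overlapped one another. The difference between 8 Gy and 0 Gy saline was 1.00 ± 0.27 on the log2 scale, with 1.05 within slide 1 and 0.95 within slide 2. Against 8 Gy saline it was 0.19 ± 0.27 for FGF1/CPP-C and 0.39 ± 0.27 for FGF1.

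The serum amyloid A genes encode small apolipoproteins of high-density lipoprotein. Of these, 3 are among the genes described here, while Saa4, also measured, is not. Saa3, the form made mainly outside the liver in mice, had signals of 3180 and 1330 with FGF1/CPP-C, 1360 and 1320 with FGF1, 379 and 259 with 8 Gy saline, and 47.1 and 30.1 with 0 Gy saline. The second 0 Gy array was not well above background. The groups stood in 3 steps without overlap, with 0 Gy saline lowest, 8 Gy saline between, and both growth factor groups, which overlapped, highest.

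The Saa3 difference was 3.06 ± 0.45 for 8 Gy against 0 Gy saline, an 8.32-fold difference, and it was above 3 within both slides. It was 2.71 ± 0.45 for FGF1/CPP-C against 8 Gy saline, a 6.55-fold difference, and 2.09 ± 0.45 for FGF1 against 8 Gy saline, a 4.27-fold difference. FGF1/CPP-C exceeded FGF1 by 0.62 ± 0.45, a difference that was 1.23 within slide 1 and 0.01 within slide 2. Against 0 Gy saline the Saa3 fold was 54.5 for FGF1/CPP-C and 35.5 for FGF1, and both rest on 0 Gy signals near the floor. Normexp background correction gave a Saa3 difference of 1.79 in place of 3.06 for 8 Gy against 0 Gy saline, and the alternatives together ranged from 1.79 to 3.66.

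Saa1 encodes one of the circulating liver forms. It had signals of 1630 and 846 with FGF1/CPP-C, 1070 and 896 with FGF1, 778 and 556 with 8 Gy saline, and 797 and 523 with 0 Gy saline. Both growth factor groups lay above both saline groups, and the saline groups overlapped. The difference was 0.84 ± 0.37 for FGF1/CPP-C against 8 Gy saline, 0.58 ± 0.37 for FGF1 against 8 Gy saline and 0.03 ± 0.37 for 8 Gy against 0 Gy saline.

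Saa2, the other circulating form, was near the background, with 5 of 8 arrays well above it. Its signals were 36.6 and 24.9 with FGF1/CPP-C, 75.2 and 77 with FGF1, 57.3 and 31.9 with 8 Gy saline, and 32.2 and 32.5 with 0 Gy saline. The FGF1 arrays were the highest, and the other 3 groups overlapped. FGF1/CPP-C was lower than FGF1 by a log2 difference of -1.33 ± 0.30, with -1.04 within slide 1 and -1.63 within slide 2, and FGF1 exceeded 8 Gy saline by 0.83 ± 0.30. Of the 2 FGF1/CPP-C arrays 1 was not well above background, and with normexp background correction these differences were -0.55 and 0.37. Saa1 and Saa2 are close paralogs, and whether their probes bind each other's transcripts was not tested.

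Adipocytes are known to make Saa3, Lcn2 and Hp, so adipocyte markers are given beside them. Of 12 markers, 0 passed in any comparison. At an unadjusted p under 0.05 by limma, 3 were counted in 8 Gy against 0 Gy saline, where 12.3% of all genes were. Against 8 Gy saline the count was 7 with FGF1/CPP-C, where 11.9% of all genes were, and 5 with FGF1, where 1.74% were. Pparg among the 3 was lower (-0.46 ± 0.18) and Lipe among the 7 was higher (0.50 ± 0.19), against the direction of the others. The median log2 signal of 12 adipocyte markers was -3.51 and -3.32 with FGF1/CPP-C, -3.71 and -3.02 with FGF1, -0.54 and -0.69 with 8 Gy saline, and -1.80 and -2.26 with 0 Gy saline. Adiponectin (Adipoq) was not well above background on any of the 4 growth factor arrays, and had 236 and 134 units with 8 Gy saline and 77 and 20.2 with 0 Gy saline. The summed signal of the list ranged from 47700 to 57300 with FGF1/CPP-C, 53400 to 58700 with FGF1, 58100 to 59000 with 8 Gy saline and 46400 to 52900 with 0 Gy saline. Saa3, Lcn2, Hp and the median of these markers were thus all higher with 8 Gy than with 0 Gy saline. In both growth factor groups Saa3 was higher and the median of the markers lower than with 8 Gy saline. The Hp difference from 8 Gy saline was -0.37 ± 0.31 with FGF1/CPP-C and 0.32 ± 0.31 with FGF1. That of Lcn2 was 0.19 ± 0.27 and 0.39 ± 0.27. The part of adipocytes in these signals was not tested.

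Hp encodes haptoglobin, the plasma protein that captures free haemoglobin. It had signals of 210 and 242 with FGF1/CPP-C, 270 and 488 with FGF1, 334 and 254 with 8 Gy saline, and 123 and 97.5 with 0 Gy saline. All 6 irradiated arrays lay above both unirradiated ones, and the FGF1/CPP-C pair lay below the other irradiated arrays. The difference was 1.41 ± 0.31 for 8 Gy against 0 Gy saline, with 1.44 within slide 1 and 1.38 within slide 2. It was -0.37 ± 0.31 for FGF1/CPP-C relative to 8 Gy saline and -0.69 ± 0.31 for FGF1/CPP-C against FGF1, while for FGF1 against 8 Gy saline it was -0.31 within slide 1 and 0.94 within slide 2.

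Lbp encodes the protein that carries bacterial lipopolysaccharide to its receptor CD14. It had signals of 119 and 112 with FGF1/CPP-C, 205 and 110 with FGF1, 103 and 245 with 8 Gy saline, and 130 and 93.3 with 0 Gy saline. The 3 highest signals, 245, 205 and 130, were on the 3 arrays with high antrum markers, and the other 5 arrays lay between 93.3 and 119. The difference between 8 Gy and 0 Gy saline was 0.53 ± 0.47 with all arrays and 0.15 without those 3, and for FGF1 against 8 Gy saline it was -0.08 ± 0.47 with all arrays and 0.09 without them.

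Orm1 and Orm2 encode orosomucoids, plasma proteins that bind drugs and lipids. Orm1 was not well above background on any array and was not measured. Orm2 had signals of 8.17 and 15.9 with FGF1/CPP-C, 23.8 and 16.7 with FGF1, 36.6 and 28.9 with 8 Gy saline, and 32.8 and 26.8 with 0 Gy saline. It was well above background on 3 arrays, both with 8 Gy saline and the first with 0 Gy saline, and on no growth factor array. Taking signals under the floor at the floor, Orm2 was 1.76-fold lower with FGF1/CPP-C and 1.55-fold lower with FGF1 than with 8 Gy saline. The 8 Gy saline signals were themselves near the floor. Over the alternatives that gave a value, the log2 difference ranged from -0.98 to -0.35 with FGF1/CPP-C and from -0.98 to -0.23 with FGF1. Of 13 hepatocyte markers, 8 were measured and 5 were not, and Ahsg, Fgb, Fgg and Tdo2 were not well above background on any array. Cps1, a urea cycle enzyme that the intestine also makes, had signals of 3160 to 5190 units over the 8 arrays. Ttr, which encodes transthyretin, had 281 and 250 units with FGF1/CPP-C, 2180 and 658 with FGF1, 607 and 4070 with 8 Gy saline, and 2740 and 1190 with 0 Gy saline, highest on the 3 arrays with high antrum markers. Albumin (Alb) was well above background only on the 3 arrays with high antrum markers, with 79.6 units on the FGF1 array, 131 on the 8 Gy saline array and 76.6 on the 0 Gy saline array.

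**Figure D3:**
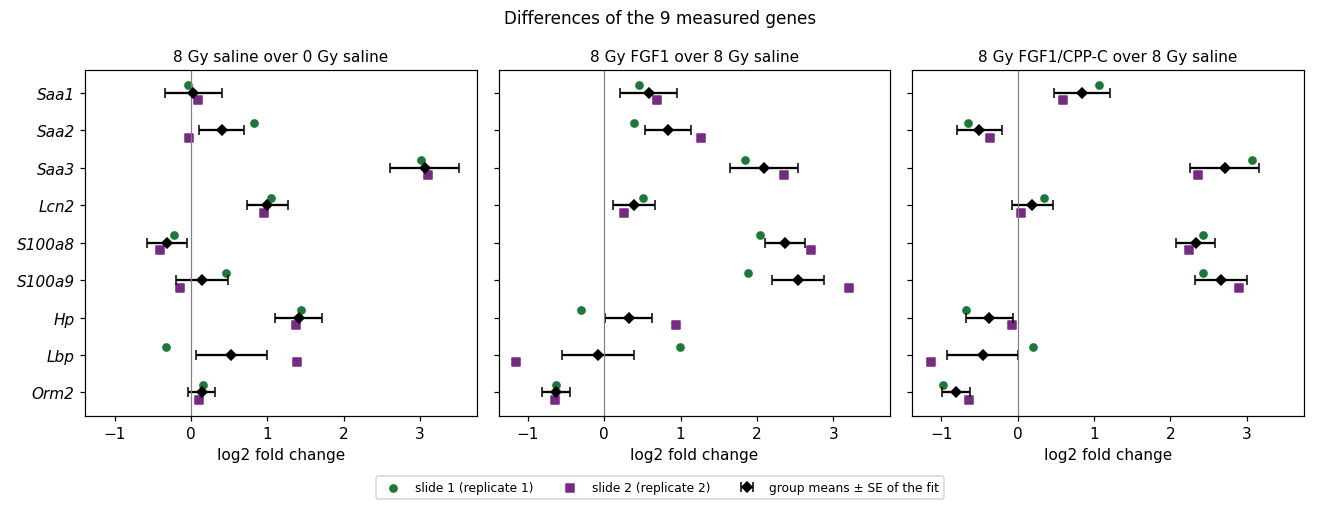
Log2 fold changes of the 9 measured genes in the 3 main comparisons, with diamonds for the difference of group means ± SE of the limma fit, circles for the difference within slide 1 and squares for that within slide 2. S100a8 and S100a9 are near 0 for 8 Gy over 0 Gy saline and between 1.88 and 3.20 within each slide for FGF1 or FGF1/CPP-C over 8 Gy saline, while Saa3 is above 0 in all 3 panels.

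Of the 9 genes, 3 lay above 0 Gy saline without overlap and by at least 2-fold in 8 Gy saline (Saa3, Lcn2 and Hp), where 0.786% of all genes did. Against 8 Gy saline, 3 did so with FGF1/CPP-C (Saa3, S100a8 and S100a9), where 0.666% of genes did, and the same 3 did so with FGF1, where 0.17% did. The median log2 difference of the 9 genes was 0.40 for 8 Gy against 0 Gy saline, 0.19 for FGF1/CPP-C relative to 8 Gy saline and 0.58 for FGF1 against 8 Gy saline, and over all genes it was -0.05, 0.04 and 0.01. Ranked from the most positive log2 difference, with decreases at the other end, S100a9 was in place 1, S100a8 in place 2 and Saa3 in place 4 of 21777 genes for FGF1 against 8 Gy saline. In the same ranking of increases for FGF1/CPP-C relative to 8 Gy saline, Saa3 was in place 10, S100a9 in place 11 and S100a8 in place 14. For 8 Gy against 0 Gy saline, ranked likewise, Saa3 was in place 4, Hp in place 94 and Lcn2 in place 191 of 21762 genes. Saa3, S100a8, Saa2 and Orm2 met the filter on dim probes only through the groups where they were high. These were the 3 irradiated groups for Saa3, both growth factor groups for S100a8, FGF1 for Saa2 and 8 Gy saline for Orm2. The 9 genes were also chosen by their signals in these groups, so the counts and places above are a description.

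FGF1/CPP-C and FGF1 were set side by side because both carry the growth factor. Of the 9 genes, 0 were higher with FGF1/CPP-C without overlap, where 24.6% of genes were, and 2 were lower without overlap, Saa2 and Hp, where 20.8% of genes were. The median difference of the 9 genes was -0.18, against 0.02 for all genes. On the FGF1/CPP-C arrays the antrum markers summed to 2020 and 1640 units, against 2040000 and 866000 with FGF1, 861000 and 2400000 with 8 Gy saline, and 2290000 and 1610000 with 0 Gy saline. The antrum genes Tff2 and Gkn3 were the 2 genes that passed in FGF1/CPP-C against FGF1, both lower. The part of this difference in tissue composition in the values of the 9 genes was not tested. Leaving out the 3 arrays with high antrum markers cannot decide it, as the remaining 8 Gy saline array still had 861000 antrum units. That array is also compared with a lone FGF1 array on the other slide. Against 8 Gy saline, Saa3, S100a8 and S100a9 were then at 2.44, 2.11 and 2.20 for FGF1/CPP-C. For FGF1 they were at 1.80, 2.25 and 2.28.

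**Figure D4:**
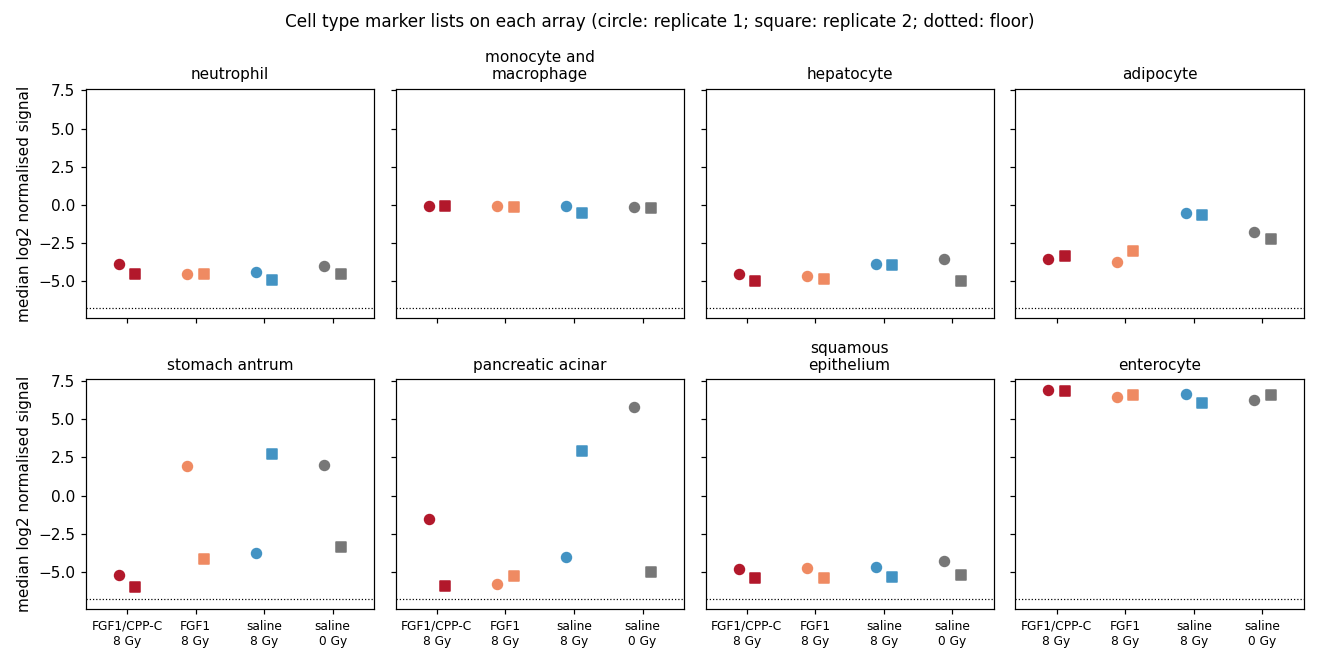
Median normalised log2 signal of 8 cell type marker lists on each array, by group, with circles for replicate 1, squares for replicate 2 and a dotted line at the floor. The antrum list is high on 3 arrays and lowest with FGF1/CPP-C, the adipocyte list is highest with 8 Gy saline, and the neutrophil list lies between -4.93 and -3.87 on all 8 arrays.

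Among themselves the genes did not move as 1 block over the 8 arrays. Saa3 followed Lcn2 with Pearson r = 0.91, S100a9 with 0.89 and S100a8 with 0.82. Saa2 followed Saa1 with only 0.29, and Lbp lay between -0.13 and 0.34 with every other gene. Orm2 ran opposite to S100a8 with -0.86, but of the 8 arrays Orm2 was well above background on only 3 and S100a8 on 6. The genes most alike to Saa3 were Atp8a1 (r = 0.992), Atg2b and Usp38 (both 0.988), those most alike to Lcn2 were Mad2l2 (0.984), Rnf135 and Nup160 (both 0.98), and those most alike to Hp were Tubd1 (0.984), Bloc1s4 (0.976) and Ctla2b (0.975). For Saa1 they were Reps2 (0.964), Olfr150 (0.963) and Tdpoz2 (0.961), and for Saa2 Acpp (0.972), Gml2 (0.963) and Ackr2 (0.961). All values are over 8 arrays that share 4 group levels and are a description.

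The other genes of the acute-phase response were taken from 8 lists of 138 genes, of which 106 were measured. In 8 Gy against 0 Gy saline, in either growth factor group against 8 Gy saline and in FGF1/CPP-C against FGF1, 0 of the 106 passed at a limma adjusted p under 0.05. Of all genes, 0.423% passed in 8 Gy against 0 Gy saline, 0.00918% in FGF1/CPP-C and 0% in FGF1 against 8 Gy saline, and 0.00918% in FGF1/CPP-C against FGF1. At an unadjusted p under 0.05, 16 of the 106 were counted in 8 Gy against 0 Gy saline, where 12.3% of all genes were. The count was 26 in FGF1/CPP-C against 8 Gy saline, where 11.9% of all genes were, 6 in FGF1 against 8 Gy saline, where 1.74% were, and 17 in FGF1/CPP-C against FGF1, where 9.02% were. Against 0 Gy saline, 4 rose and 1 fell with FGF1/CPP-C and 2 rose with FGF1, by limma with Benjamini-Hochberg adjustment over all genes, where 2% of all genes passed with FGF1/CPP-C and 0.9% with FGF1.

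Among 16 measured plasma acute-phase genes, 2 rose against 0 Gy saline in both growth factor groups. Itih3, a heavy chain of the inter-alpha-trypsin inhibitor family that binds hyaluronan, had 514 and 502 units with FGF1/CPP-C, 429 and 417 with FGF1, 273 and 237 with 8 Gy saline, and 167 and 180 with 0 Gy saline. The 4 groups did not overlap. Its log2 difference from 0 Gy saline was 1.55 ± 0.11 with FGF1/CPP-C (limma adjusted p = 0.0074) and 1.29 ± 0.11 with FGF1 (adjusted p = 0.0147). Cp, the copper carrier ceruloplasmin, had 847 and 874 units with FGF1/CPP-C, 842 and 766 with FGF1, 632 and 653 with 8 Gy saline, and 461 and 451 with 0 Gy saline. The growth factor arrays were highest and the 0 Gy arrays lowest, and Cp rose by 0.92 ± 0.09 with FGF1/CPP-C (adjusted p = 0.0214) and by 0.82 ± 0.09 with FGF1 (adjusted p = 0.0316). With the slide as a block, the Cp call with FGF1 was lost (adjusted p = 0.0637 by limma). The median of the 16 genes was 0.09 with FGF1/CPP-C and 0.05 with FGF1 against 0 Gy saline, against 1.04 and 1.38 for the 9 acute-phase and calprotectin genes. The 9 genes were chosen by their signals across these groups, so the contrast with the 16 is a description and no test.

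Of 9 measured cytokines that induce acute-phase genes, 0 passed in any comparison, and Il6 and Csf3 were not well above background on any array. Il1b had 488 and 489 units with FGF1/CPP-C, 408 and 352 with FGF1, 371 and 283 with 8 Gy saline, and 303 and 314 with 0 Gy saline, a difference of 0.59 ± 0.15 for FGF1/CPP-C against 8 Gy saline (limma adjusted p = 0.325). The leukaemia inhibitory factor gene Lif had 121 and 131 units with FGF1/CPP-C, 120 and 137 with FGF1, 112 and 121 with 8 Gy saline and 75.7 and 87.9 with 0 Gy saline, with a difference of 0.51 ± 0.12 for 8 Gy against 0 Gy saline (limma adjusted p = 0.204). Tnf, which encodes tumour necrosis factor, had a difference of 0.62 ± 0.32 in the same comparison (limma adjusted p = 0.504). Il22, whose product acts on the gut epithelium, had one of 0.36 ± 0.30 for FGF1/CPP-C against 8 Gy saline (limma adjusted p = 0.615), and 0.12 without the 3 arrays with high antrum markers. Without those arrays the Lif difference was 0.34.

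Of 14 measured receptors of these cytokines, 0 passed in any comparison. Between 8 Gy and 0 Gy saline the differences were 0.62 ± 0.18 for the oncostatin M receptor Osmr (limma adjusted p = 0.252) and -0.41 ± 0.13 for the leukaemia inhibitory factor receptor Lifr (adjusted p = 0.291). Between FGF1/CPP-C and 8 Gy saline they were 0.50 ± 0.16 for the interleukin 22 receptor subunit Il22ra1 (limma adjusted p = 0.366) and 1.20 ± 0.39 for the soluble interleukin 22 binding protein Il22ra2 (adjusted p = 0.368). Without the 3 arrays with high antrum markers the Il22ra1 difference was 0.29.

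Of 21 genes of STAT3, NF-kB and C/EBP signalling and its feedback, Cebpb rose with FGF1/CPP-C against 0 Gy saline and the other 20 did not pass. Cebpb, which encodes the C/EBP-beta factor that acts on many acute-phase promoters, had 6510 and 6370 units with FGF1/CPP-C, 6050 and 5910 with FGF1, 6400 and 5490 with 8 Gy saline, and 4010 and 4140 with 0 Gy saline. All 6 irradiated arrays were above both unirradiated ones. The difference was 0.66 ± 0.10 with FGF1/CPP-C (limma adjusted p = 0.0448) and 0.54 ± 0.10 for 8 Gy against 0 Gy saline (adjusted p = 0.133). Socs3, a feedback inhibitor of STAT3 signalling that was picked after its values were seen, had 8170 and 6110 units with FGF1/CPP-C, 14400 and 8840 with FGF1, 12700 and 7010 with 8 Gy saline and 3720 and 3440 with 0 Gy saline, and for 8 Gy against 0 Gy saline it did not pass (limma adjusted p = 0.215).

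Among 11 measured receptors and partners of the proteins, Fpr2, a formyl peptide receptor that serum amyloid A binds, rose with FGF1/CPP-C against 0 Gy saline. It had 144 and 173 units with FGF1/CPP-C, 124 and 118 with FGF1, 84.7 and 65.5 with 8 Gy saline, and 73.1 and 75.2 with 0 Gy saline. The growth factor groups did not overlap the saline groups. The difference was 1.09 ± 0.16 for FGF1/CPP-C against 0 Gy saline (limma adjusted p = 0.0363) and 1.08 ± 0.16 against 8 Gy saline (adjusted p = 0.157), and 0.70 ± 0.16 for FGF1 against 8 Gy saline (adjusted p = 1).

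Of 15 measured epithelial defence genes, 0 passed in any comparison. Cxcl5, a chemokine that attracts neutrophils, had 145 and 141 units with FGF1/CPP-C, 67.7 and 100 with FGF1, 78.8 and 46.1 with 8 Gy saline, and 46.1 and 39.4 with 0 Gy saline, a difference of 1.24 ± 0.30 for FGF1/CPP-C against 8 Gy saline (limma adjusted p = 0.311). Wfdc2, a protease inhibitor, was not well above background on either FGF1/CPP-C array, and had 12400 and 1800 units with FGF1, 1600 and 21200 with 8 Gy saline, and 14000 and 3630 with 0 Gy saline. Its highest signals were on the 3 arrays with high antrum markers. Between 8 Gy and 0 Gy saline the differences were -0.27 ± 0.11 for Pigr, the receptor that carries immunoglobulin A across the epithelium (limma adjusted p = 0.386), and 0.57 ± 0.30 for Duoxa2, the maturation factor of the oxidase Duox2 (adjusted p = 0.521), with a Duoxa2 difference of 1.05 without those 3 arrays.

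Of 12 other measured S100 genes, S100g fell with FGF1/CPP-C against 0 Gy saline, and the other 11 did not pass in any comparison. S100g, the calcium-binding protein calbindin of the absorbing enterocyte, had 234000 and 212000 units with FGF1/CPP-C, 393000 and 360000 with FGF1, 385000 and 338000 with 8 Gy saline, and 406000 and 456000 with 0 Gy saline. The FGF1/CPP-C arrays were the lowest, and the difference was -0.95 ± 0.12 (limma adjusted p = 0.0281). The median difference of the 12 genes was -0.65 for FGF1/CPP-C and -0.03 for FGF1 against 8 Gy saline, while S100a8 and S100a9 were higher in both. S100a6 and S100a14 were highest on the 3 arrays with high antrum markers, S100a14 with 461 and 435 units with FGF1/CPP-C, 1830 and 535 with FGF1, 610 and 6930 with 8 Gy saline, and 1510 and 311 with 0 Gy saline. Without those 3 arrays the median of the 12 was -0.28 for FGF1/CPP-C and 0.03 for FGF1 against 8 Gy saline, and the S100g difference of FGF1/CPP-C from 0 Gy saline was -1.03. Of 8 other measured lipocalins, 0 passed in any comparison. For FGF1/CPP-C against 8 Gy saline the differences were -0.73 ± 0.13 for Ambp, the precursor of alpha-1-microglobulin (limma adjusted p = 0.206), and -0.61 ± 0.32 for Rbp4, the carrier of retinol (adjusted p = 0.466), and for 8 Gy against 0 Gy saline they were -0.18 ± 0.09 for Lcn12 (adjusted p = 0.497) and 0.37 ± 0.25 for Apod (adjusted p = 0.621). Rbp4 was highest on the 3 arrays with high antrum markers, and without them its difference was -0.19, that of Ambp -0.84 and that of Apod 0.14.

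With the slide as a block, the calls of Cebpb (limma adjusted p = 0.0733), Fpr2 (adjusted p = 0.0647) and S100g (adjusted p = 0.0533) were lost, and those of Itih3 (adjusted p = 0.0179 with FGF1/CPP-C and 0.0354 with FGF1) and of Cp with FGF1/CPP-C (adjusted p = 0.04) were kept. All 7 calls were lost in the fit to the compared groups alone, where the adjusted p lay between 0.0554 and 0.127.

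**Figure D5:**
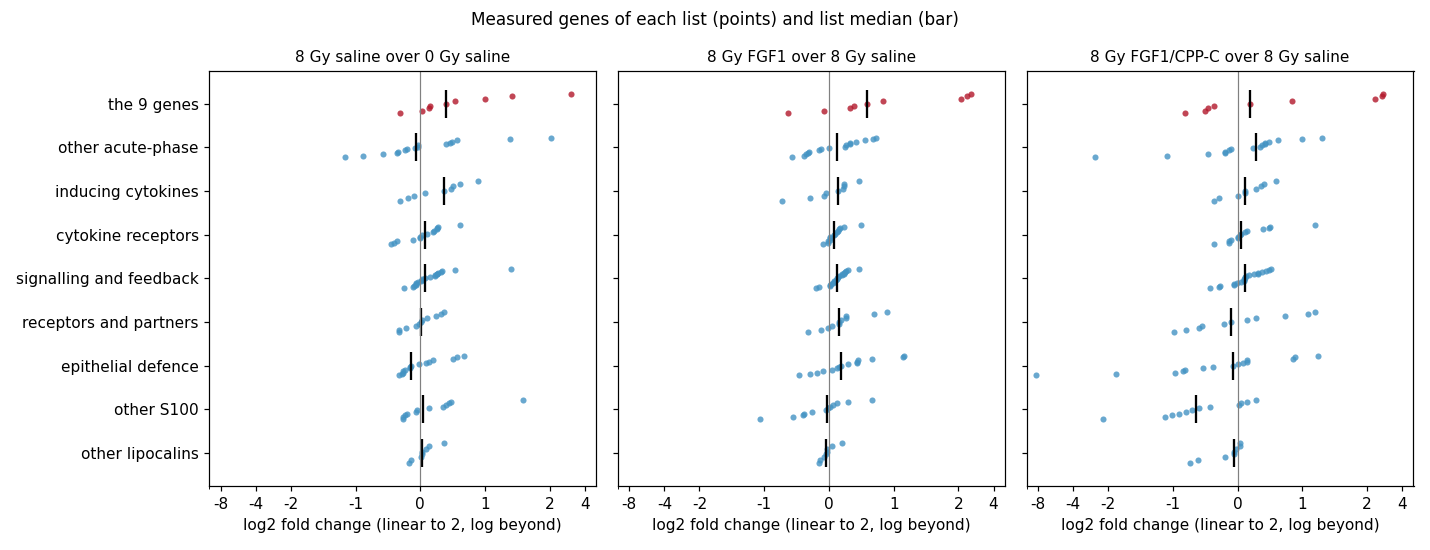
Log2 fold changes of the measured genes of each list in the 3 main comparisons, 1 point per gene with the list median as a bar, on an axis that is linear to 2 and logarithmic beyond. The 9 measured acute-phase and calprotectin genes, chosen by their signals across the groups, are on the top row. For FGF1 over 8 Gy saline their 3 highest points lie beyond 2, to the right of every gene of the other 8 lists.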

How the data were processed

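RNA was labelled with Cy3 and hybridised to 8 1-colour Agilent arrays, per the labels' protocols. Scans were quantified in Agilent Feature Extraction 9.5.3.1, per the submitters' processing notes, and probe coordinates are those of mm9, per the file headers. The deposited processed signal is a linear intensity, background-subtracted by the scanner software and unscaled between arrays. The deposited series matrix holds the same intensity values (ratio of 1.0, uncentred, medians 674.5 to 849.4). The sources used here do not state how the authors normalised between arrays.

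Each processed signal was divided by the 75th percentile of its array and put on the log2 scale, with a floor of -6.74 (18.5 scaled units), the highest over the arrays of the lowest signal among probes well above background. Control spots (1377 per array) and outlier spots were left out, and the 43020 other spots gave 39429 probes, of which 28330 were named through an accession in the RefSeq table of GRCm38.p6, 2204 through the symbol and 8895 by the array's own name. A probe was kept if any group had it well above background on both of its arrays (27535), and each gene took its brightest probe (21821 genes). The comparisons were fitted with limma 3.58.1 in R 4.3.3 on 4 group means, with 4 residual degrees of freedom, and p-values were adjusted over all genes of a comparison by Benjamini-Hochberg. With 2 arrays against 2, an exact test of a single gene cannot go below p = 0.333. In simulated data for 8 Gy against 0 Gy saline over 21572 genes the share recovered was 59.7% for 67 genes set to 2-fold, 88.1% for 67 at 4-fold and 90.9% for 66 at 8-fold, and 12 other genes were called. The simulated noise was independent between genes, so it held no shift shared by many genes, such as that of the antrum markers. Its variances were those of the data after limma had drawn them towards a common value, so the shares recovered may be too high. The number of arrays limits the precision. Promoters were searched in Python 3.11.15 and figures drawn with matplotlib 3.10.9.

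The genes and lists were chosen with earlier results of these data known. Named genes are all 10, list genes that passed (up to 4 per list) or else the 2 of smallest p in 8 Gy against 0 Gy saline and the 2 in FGF1/CPP-C against 8 Gy saline, the 2 brightest of each cell type list, and the 3 most correlated with each gene. Socs3, Il6, Csf3, Adgre1 and the other cell type markers were picked after their values were seen.

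Replicate numbers coincide with slides. Deviations of same-numbered arrays correlated between -0.52 and 0.54 over the 6 pairs of groups, so the numbers were not taken as pairs, and the slide was used as a block in an alternative. The results were recomputed under 16 other settings and 1 more chosen after the data were seen.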

Additional observations from a re-analysis of the deposited data

How the results depend on the processing

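Each group has 2 arrays, so 1 array can decide a value, and genes near background (Saa2, Saa3 with 0 Gy saline, S100a8 with saline, Orm2) have log2 differences that shrink under normexp background correction. Of 54 differences of the 9 genes over 6 comparisons, 33 kept their sign in all alternatives that gave a value, and of 889 single values 40 changed sign. Under every alternative that gave a value, Saa3, S100a8 and S100a9 kept the sign of their difference from 8 Gy saline in both growth factor groups. Saa3 and S100a8 had no value when only probes above background on all arrays were kept.

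With the replicate number, which is the slide, as a block, 37 genes passed for 8 Gy against 0 Gy saline, 174 with FGF1/CPP-C set against 0 Gy saline and 76 for FGF1 against 0 Gy saline, against 92, 436 and 196 without it, and the block changed the count of no other comparison. Fitting the compared groups alone gave 0, 10 and 5 in these 3 comparisons, and 1 in place of 2 for FGF1/CPP-C against FGF1. Normexp gave 144 for 8 Gy against 0 Gy saline, 374 for FGF1 against 0 Gy saline, 6 with FGF1/CPP-C set against 8 Gy saline and 7 when FGF1/CPP-C was set against FGF1. Without the filter on dim probes the counts were 42 for 8 Gy against 0 Gy saline, 257 with FGF1/CPP-C set against 0 Gy saline and 5 with FGF1/CPP-C set against 8 Gy saline. For FGF1/CPP-C against 8 Gy saline, with 2 called, quantile normalisation and the mean of probes gave 7 each, the series matrix 0 and probes above background on all arrays 1, and between FGF1/CPP-C and FGF1 these gave 14, 11, 0 and 1. The mean of probes gave 2 for FGF1 against 8 Gy saline, where 0 passed otherwise. Leaving out 1 array gave 0 to 41 for 8 Gy against 0 Gy saline, 2 to 7 for FGF1/CPP-C and 0 for FGF1 against 8 Gy saline, 2 to 5 for FGF1/CPP-C against FGF1, 1 to 846 for FGF1/CPP-C and 0 to 171 for FGF1 against 0 Gy saline. Without one or the other 0 Gy saline array the count for 8 Gy saline was 0, as was the FGF1 count against 0 Gy saline, which was also 0 without one or the other FGF1 array. A lone array was assumed to vary like the other groups. Leaving out the 3 arrays with high antrum markers, an alternative chosen after the data were seen, gave 0 in all 6 comparisons. The cause of these shifts was not tested, apart from the smaller number of arrays.

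The median difference of the 9 genes was 0.40 for 8 Gy against 0 Gy saline (-0.02 to 0.61 leaving out 1 array, the lowest without 8 Gy saline replicate 1, 0.77 without the 3 arrays). It was 0.19 for FGF1/CPP-C against 8 Gy saline (-0.11 to 0.49 leaving out 1 array, the lowest without FGF1/CPP-C replicate 1, 0.48 with the series matrix). For FGF1/CPP-C against FGF1 it was -0.18 (-0.36 to 0.10 leaving out 1 array, -0.12 with quantile normalisation and with normexp, -0.13 with the series matrix, -0.11 without the filter, 0 without the 3 arrays). For FGF1/CPP-C against 0 Gy saline it was 1.04 (0.87 to 1.34 leaving out 1 array, 1.16 with quantile normalisation, 0.83 with normexp, 1.10 with the series matrix, 0.95 without the filter, 1.21 without the 3 arrays). For FGF1 against 0 Gy saline it was 1.38 (1.25 to 1.49 leaving out 1 array, 1.41 with quantile normalisation, 1.08 with normexp, 1.55 with the series matrix, 1.31 without the filter, 1.25 without the 3 arrays).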
